A study of Mus musculus with 96 samples.

Results

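The data are small RNA sequencing libraries from the striatum of Q92 mice, 8 taken at 10 months and 8 taken at 6 months of age. They were chosen by the genotype and age in their sample labels, and they make up 16 of the 96 libraries in the series. Every Q92 mouse was a C57BL/6 heterozygote that kept one wild-type Htt allele and carried one knock-in allele holding a human HTT exon 1 with a CAG repeat, and all are labelled as housed with Q92 heterozygotes. Each age had 4 females and 4 males, and the ages came from different animals. The other libraries came from Q140, Q50 and Q20 heterozygotes (16 libraries each) and from wild-type mice, littermates either of Q20 or of Q50 heterozygotes (32 libraries), at the same ages. No wild-type littermates of the Q92 line were analysed here, so the wild-type mice come from other lines.

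The striatum is the part of the forebrain whose spiny projection neurons are most vulnerable in Huntington's disease, the disorder caused by a long CAG repeat in HTT. MicroRNAs are short RNAs cut from hairpin precursors by the nucleases Drosha and Dicer and loaded into Argonaute proteins, where they pair with messenger RNAs and lower their stability and translation. A count per hairpin sums the reads from both arms, so it does not tell which mature microRNA was sequenced. Bulk tissue also mixes neurons, glia and vessel cells, and fewer cells of a type cannot be told apart from less microRNA per cell.

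The files give each hairpin by an accession only, and 0 of the 419 accessions tested could be matched to a name or a sequence in the references used here. Hairpins are therefore given by accession, and only 2 that rose and 2 that fell are named for the main comparison. Neuronal, glial, blood or vessel markers could not be looked up, so the tissue label was not checked against them.

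Total counts per library ran between 3948560 and 8275960 at 10 months and between 5676746 and 7951639 at 6 months. Their means differed by less than the spread among libraries (two-sided exact permutation test over 12870 splits, p = 0.233). Of 1187 hairpins in the table, 944 had a count in at least one Q92 library, and the 419 that passed a filter on low counts held 99.98% of all counts. Any pair of libraries differed far beyond sampling noise (chi-square of at least 25.2 per degree of freedom), so none was deposited more than once. One library stood apart from the rest. For 10-month female 1 the median distance to the libraries of its own age was 16.1 (Euclidean, on log2 CPM). The other Q92 libraries had 7.92 to 11.5. Most results that rest on female 1 are given with and without it.

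The first question was which hairpins differed between 10 and 6 months in Q92 striatum. Between the ages, 86 of 419 hairpins (20.5%) differed at an adjusted p below 0.05 (edgeR quasi-likelihood test with sex as covariate, Benjamini-Hochberg adjustment). Of these, 32 (7.64%) were higher and 54 (12.9%) were lower at 10 months. The differences were mostly modest. The median of the hairpins that rose was 0.39 on the log2 scale, or 1.31-fold, and the median of those that fell was -0.44, or 0.738-fold. In 54 of the 86 the difference was smaller than 0.5 log2, and in 8 it was larger than 1, with 4 higher and 4 lower. The balance of directions depended on scaling: with total counts in place of TMM factors, 94 hairpins were called, 60 higher and 34 lower. That scaling moved the median log2 difference of all hairpins to 0.08, against -0.02 with TMM, a shift of 0.10. In these same libraries, all 86 hairpins kept their sign and 66 of them were still called.

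MI0004665 had the most negative log2 difference of the 4 named hairpins. It had 215, 251 and 276 CPM (counts scaled to a common library size, in the lowest, median and highest library) at 10 months, against 401, 516 and 814 CPM at 6 months. The highest 10-month library lay below the lowest 6-month library, and the 6-month libraries were the more spread out. The means were 249 ± 17.8 CPM at 10 months and 544 ± 142 CPM at 6 months (SD, n = 8 each), a log2 difference of -1.12 ± 0.13 (SE, edgeR adjusted p = 3.31e-05). The estimated counts of MI0004665 were not whole numbers in 13 of the 16 libraries, so part of its reads may be shared with other hairpins.

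MI0000257, the 19th most abundant hairpin in these libraries, was also lower at 10 months. It had 8096, 8334 and 11134 CPM (lowest, median and highest) at 10 months, against 12143, 13700 and 15358 CPM at 6 months. The ages did not overlap, although 10-month male 4 lay apart from the other 10-month libraries on the side of the 6-month ones. The means were 8775 ± 1039 CPM at 10 months and 13553 ± 1112 CPM at 6 months (SD, n = 8 each), a log2 difference of -0.63 ± 0.08 (SE, edgeR adjusted p = 3.31e-05). Its estimated counts were whole in all 16 libraries.

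MI0000577 was higher at 10 months. It had 2096, 2358 and 2677 CPM (lowest, median and highest) at 10 months, against 1473, 1840 and 1961 CPM at 6 months. All 8 libraries at 10 months lay above all 8 at 6 months. The means were 2386 ± 176 CPM and 1739 ± 216 CPM at 10 and 6 months (SD, n = 8 each), a log2 difference of 0.46 ± 0.07 (SE, edgeR adjusted p = 0.000443). The estimated counts were not whole in any of the 16 libraries for MI0000577.

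MI0004636 was less abundant than MI0000577 and more variable relative to its mean. It had 167, 222 and 312 CPM (lowest, median and highest) at 10 months, against 114, 154 and 165 CPM at 6 months. The ages came close without overlapping, since male 1 at 10 months had 167.2 CPM and female 1 at 6 months had 164.8 CPM. The means were 229 ± 49.7 CPM at 10 months and 146 ± 20.7 CPM at 6 months (SD, n = 8 each), a log2 difference of 0.64 ± 0.11 (SE, edgeR adjusted p = 0.000843).

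**Figure D1:**
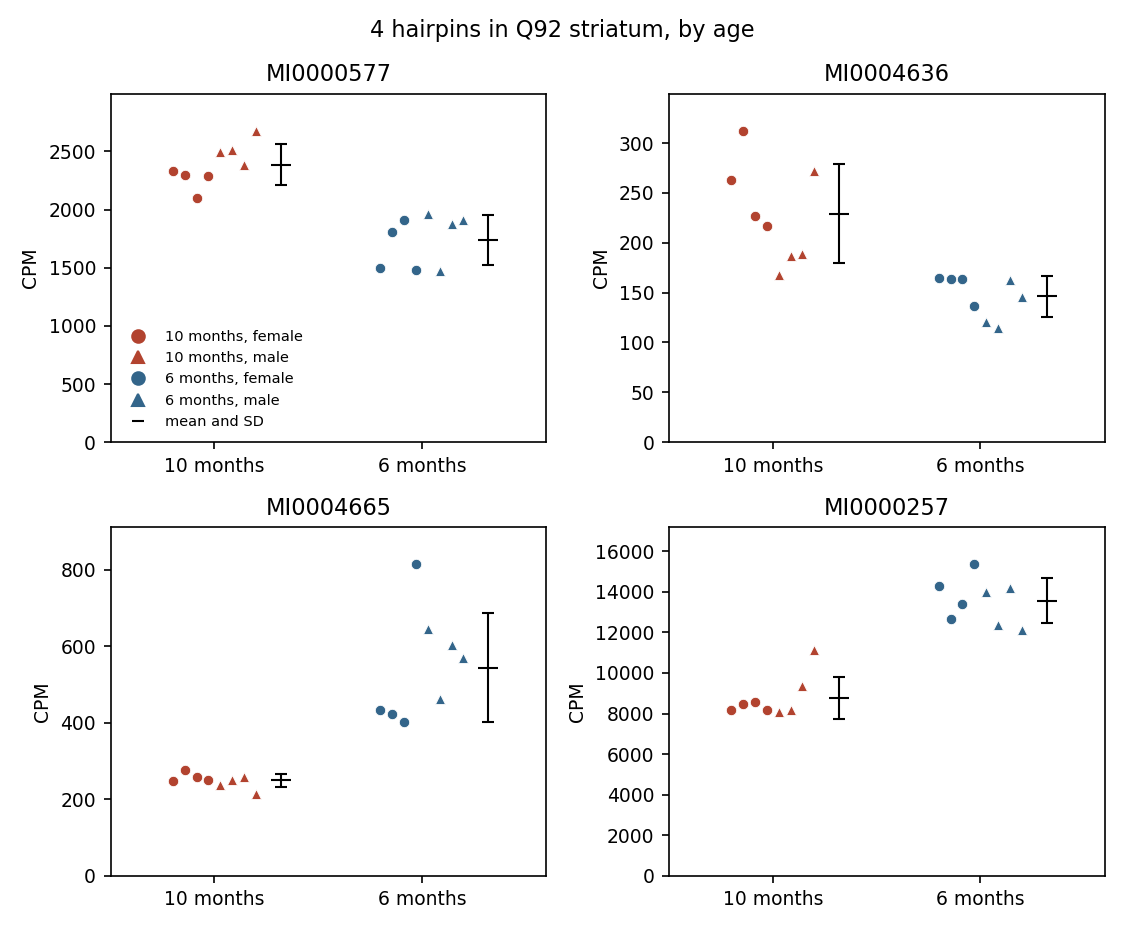
Levels of 4 hairpins in the 16 Q92 libraries, in CPM after TMM scaling, with 10 months left of 6 months; circles are females, triangles are males, and bars show the mean ± SD of 8 libraries. In each panel the ages do not overlap, with the narrowest gap in MI0004636 (167.2 CPM at 10 months against 164.8 CPM at 6 months).

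Complete separation of the ages was seen in 18 of the 419 hairpins (4.3%). In 5 of them every 10-month library was above every 6-month library, and in 13 every 10-month library was below. Separation was read from CPM after TMM scaling, whose factors did not overlap between the ages, so this balance may depend on scaling. All 18 were among the 86 called, and their absolute log2 differences ran between 0.33 and 2.31. Separation occurred over a wide range of abundance, from hairpins averaging 9.39 CPM to one averaging 17256 CPM.

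The largest rise belonged to one of these 18 hairpins. It had 85.8, 253 and 656 CPM (lowest, median and highest) at 10 months, against 21.5, 70.0 and 84.8 CPM at 6 months. Its log2 difference was 2.31 ± 0.38 (SE, edgeR adjusted p = 0.000942), and in wild-type mice the same hairpin differed between the ages by 2.03 ± 0.25 (adjusted p = 1.77e-10). The largest fall was of another kind. That hairpin had 0, 2.90 and 5.54 CPM at 10 months, against 0, 4.65 and 59.3 CPM at 6 months. The ages overlapped, since the median 6-month library lay within the 10-month range, and the 3 highest 6-month libraries had 59.3, 57.8 and 46.6 CPM. Its log2 difference was -3.32 ± 1.08 (SE, edgeR adjusted p = 0.0421), and in wild-type mice it was -1.32 ± 0.81, which did not pass the test (adjusted p = 0.203). Its estimated counts were not whole in any of the 16 libraries.

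Calls were less frequent among scarce hairpins, where the error was larger. Below 10 CPM, 3 hairpins were higher and 10 lower out of 104 (12.5% called), with a median standard error of 0.18 log2. Between 10 and 100 CPM the counts were 13 higher and 11 lower out of 112 (21.4%), with a median standard error of 0.13. Between 100 and 1000 CPM they were 11 higher and 17 lower out of 112 (25%), with a median standard error of 0.10. Above 1000 CPM, 5 were higher and 16 lower out of 91 (23.1%), with a median standard error of 0.09. With TMM scaling, falls outnumbered rises in each class except that between 10 and 100 CPM.

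**Figure D2:**
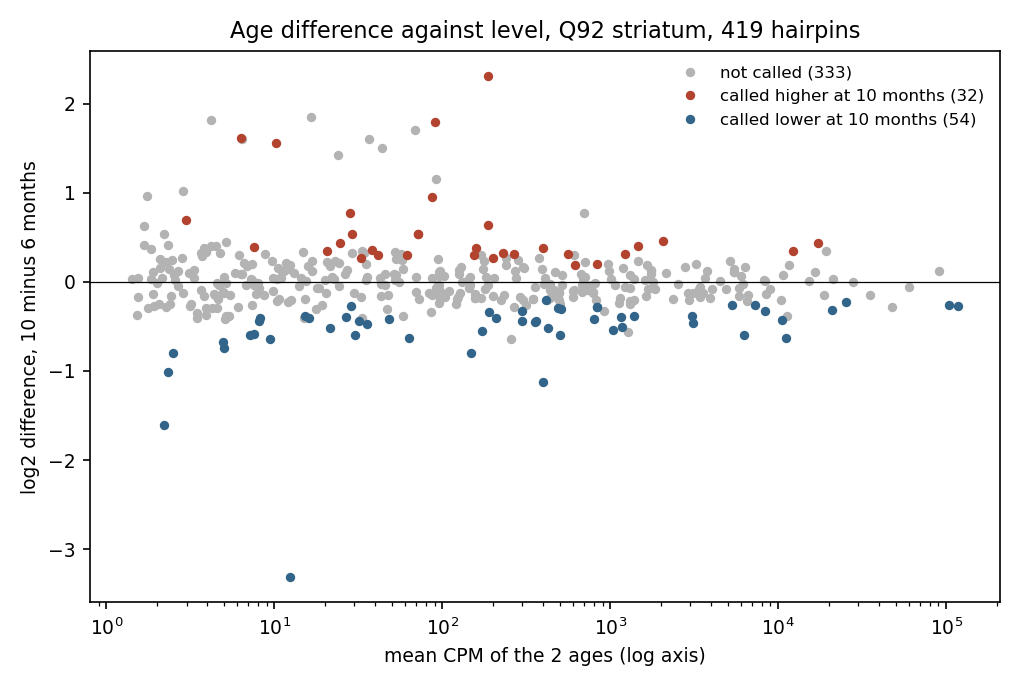
The log2 difference between 10 and 6 months (vertical axis) against the mean CPM of the ages (horizontal log axis) for the 419 hairpins tested in Q92; each point is a hairpin, grey where it was not called. The 32 called higher and the 54 called lower both spread over scarce and abundant hairpins, and the highest point is the rise of 2.31 log2.

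The 2 most abundant hairpins were among those that fell. The most abundant hairpin held 11.1 ± 1.59% of counts at 10 months and 12.5 ± 1.08% at 6 months (SD, n = 8 each), and its log2 difference was -0.27 ± 0.09 (SE, edgeR adjusted p = 0.0325). The next held 9.74 ± 0.98% at 10 months and 10.96 ± 1.73% at 6 months, with a log2 difference of -0.26 ± 0.08 (SE, edgeR adjusted p = 0.0319). The third held 9.72 ± 0.51% at 10 months and 8.40 ± 1.08% at 6 months, and its log2 difference of 0.12 ± 0.06 did not pass the test (adjusted p = 0.202). Of the 20 most abundant hairpins, 5 fell and 2 rose, beside 54 and 32 of all 419. These shares are of unscaled counts, while the log2 differences use TMM scaling, on which the balance of directions depended.

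Counts were spread over more hairpins at 10 months. The effective number of hairpins (the exponential of the Shannon entropy of the count shares, a measure chosen after the values had been seen) was 47.1, 48.9 and 50.7 at 10 months (lowest, median and highest), against 45.5, 46.5 and 48.2 at 6 months. The ages overlapped, but the means differed by 2.34 (two-sided exact permutation test over 12870 splits, p = 0.00171), with 48.9 ± 1.31 at 10 months and 46.6 ± 0.94 at 6 months (SD, n = 8 each). The 8 most abundant hairpins of each library, a share also chosen after the values had been seen, held 50.1 ± 0.82% of counts at 10 months and 51.8 ± 0.75% at 6 months (SD, n = 8 each; difference -1.69 points, exact permutation p = 0.00124). With the L4 libraries alone, a label number described below, the differences were 0.69 (exact permutation p = 0.314) and -0.69 points (exact permutation p = 0.257).

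As a description of the called hairpins together, the 54 that fell held 31.1 ± 1.87% of counts at 10 months and 35.9 ± 1.41% at 6 months (SD, n = 8 each). The 32 that rose held 4.54 ± 0.28% at 10 months and 3.21 ± 0.23% at 6 months (SD, n = 8 each). These hairpins were chosen on the same libraries, so the values carry no test. In wild-type mice, which did not choose them, the 54 held 31.1 ± 1.38% at 10 months and 35.9 ± 2.82% at 6 months (SD, n = 16 each), and the 32 held 4.50 ± 0.22% and 3.16 ± 0.50% at those ages.

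A difference in handling or sequencing cannot be told apart from age here. The labels carry an L number for each library, whose meaning they do not give, and the serial numbers of the libraries run in separate blocks for the ages throughout the series. At 10 months, 3 Q92 libraries were L3, 4 were L4 and 1 was L5, and at 6 months 3 were L4, 4 were L5 and 1 was L6. With the L number as a factor, 41 hairpins were called (11 higher and 30 lower), and among the L4 libraries alone 38 were called (17 higher and 21 lower). All 86 hairpins kept their direction in both, with 32 of them still called in the first and 26 in the second, and 19 in both. Both fits reuse libraries that chose the 86, so a kept direction was likely beforehand. The 4 named hairpins, taken for their low adjusted p in the main fit, passed in both. With the L number as a factor, the log2 difference was -0.97 for MI0004665, -0.52 for MI0000257, 0.39 for MI0000577 and 0.63 for MI0004636. In the L4 libraries alone it was -0.85, -0.45, 0.36 and 0.73 in that order. For MI0004665, MI0000257 and MI0000577 both values were smaller in size than in the main fit, and the cause was not tested. Fewer libraries or more terms enter these fits, and how much of the lower counts comes from that was not tested. TMM factors were between 0.9998 and 1.078 at 10 months and between 0.950 and 0.983 at 6 months, without overlap. With total counts, which leave these factors out, the 4 named hairpins passed.

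Females and males were then compared, since each age had 4 of each. No hairpin had an age difference that differed between the sexes in the age by sex term (0 of 419 at an adjusted p below 0.05, 0%; 28 at an unadjusted p below 0.05, smallest adjusted p = 0.597; DESeq2 also called 0). With females alone 27 hairpins were called (7 higher and 20 lower), and with males alone 11 were called (6 higher and 5 lower). The 2 named hairpins that fell had log2 differences of -0.999 ± 0.22 in females and -1.24 ± 0.13 in males for MI0004665, and of -0.73 ± 0.08 in females and -0.51 ± 0.12 in males for MI0000257 (SE). For MI0004636 the differences were 0.71 ± 0.13 in females and 0.60 ± 0.17 in males, and with 4 males an age the second did not pass the test (edgeR adjusted p = 0.109).

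The next question was whether the age difference in Q92 differed from that in mice without an expanded repeat or with a shorter one. In a fit of all 96 libraries over 474 hairpins, 81 (17.1%) were called between the ages in Q92, 60 of them among the 86. Scaling factors were computed anew in that fit, so CPM and log2 values from it differ a little from those above. In that fit 175 (36.9%) were called in wild type, which has 32 libraries against 16 for each other genotype. It called 89 (18.8%) in Q20, 68 (14.3%) in Q50 and 71 (15%) in Q140. The difference between Q92 and wild type passed for 0 hairpins (0%; 25 at an unadjusted p below 0.05), and that between Q92 and Q20 for 0 (0%; 31 at an unadjusted p below 0.05). DESeq2 called 6 hairpins against wild type and 0 against Q20. All 6 were among 9 hairpins that stood far above the rest in 10-month female 1, and without that library DESeq2 called 0 against wild type.

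The 86 hairpins called in Q92 were mostly called in wild type too. Of the 86, 85 had the same sign in wild type in the fit of all 96 libraries, where 78.5% of all 419 hairpins had, and 73 were called there in the same direction. Those 73 are 84.9% of the Q92 calls and 42.4% of the 172 wild-type calls among the 419 hairpins. The median log2 difference in the Q92 direction was 0.41 in wild type, against 0.43 in Q92, taken from the fit of the 16 libraries in which the hairpins were chosen. Across the 419 hairpins the log2 differences of both genotypes had a Pearson r of 0.64 and a Spearman rho of 0.72, given as a description since hairpins share libraries and are not independent. No sample was shared between the comparisons, but the ages of every genotype lay in the same separate blocks of serial numbers.

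**Figure D3:**
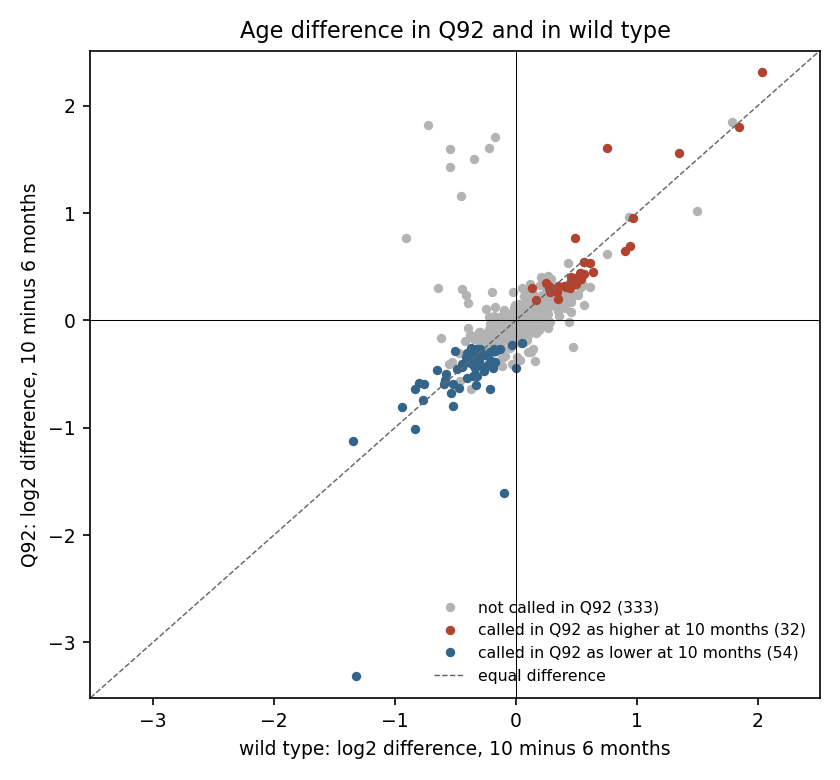
The log2 difference between 10 and 6 months in Q92 (vertical axis, fit of the 16 Q92 libraries) against that in wild type (horizontal axis, fit of all 96) for 419 hairpins, with the line of equal difference dashed. Of the 86 hairpins called in Q92, 85 have the same sign in wild type; the grey points at the upper left are hairpins raised in 10-month female 1.

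Fewer of the 86 were called in the other knock-in lines, each with 16 libraries, where fewer hairpins were called in all. In Q20, 83 of the 86 had the same sign and 40 were called in the same direction, with a median of 0.32 log2 in the Q92 direction, and 85 of all 419 hairpins were called. In Q50, 73 had the same sign and 31 were called, with a median of 0.28, beside 65 of all 419. In Q140, 83 had the same sign and 36 were called, with a median of 0.33, beside 65 of all 419. The shares of all hairpins with the same sign as in Q92 were 74.0% in Q20, 64.7% in Q50 and 76.8% in Q140. None of the 86 was called in the opposite direction in any of these lines or in wild type. Of the 86, 72 had the same sign in all 4 other genotypes, 20 were called in all 4 and 11 in none. None of these 11 differed in a test between Q92 and wild type, Q20 or Q50. Matching counts over all 419 hairpins are not given here, so the 72, 20 and 11 do not set the 86 apart.

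The named hairpins showed the same order of ages elsewhere. In the fit of all 96 libraries, MI0004665 had log2 differences of -1.08 ± 0.18 in Q92, -1.45 ± 0.18 in Q140, -1.42 ± 0.18 in Q50, -1.28 ± 0.18 in Q20 and -1.35 ± 0.13 in wild type (SE). MI0004636 had 0.69 ± 0.12 in Q92, 0.74 ± 0.12 in Q140, 0.83 ± 0.12 in Q50, 0.89 ± 0.12 in Q20 and 0.90 ± 0.08 in wild type. MI0000577 had 0.50 ± 0.09 in Q92, 0.45 ± 0.09 in Q140, 0.49 ± 0.09 in Q50, 0.44 ± 0.09 in Q20 and 0.64 ± 0.06 in wild type. All of these passed the test in every genotype.

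MI0000257 had a negative log2 difference in each genotype. It was -0.58 ± 0.09 in Q92, -0.42 ± 0.09 in Q140, -0.31 ± 0.09 in Q50, -0.21 ± 0.09 in Q20 and -0.47 ± 0.06 in wild type (SE), and the value in Q20 did not pass the test (edgeR adjusted p = 0.0673). The difference between Q92 and Q20 was -0.37 ± 0.12, with an unadjusted p of 0.00253 and an edgeR adjusted p of 0.300, and that between Q92 and Q50 was -0.27 ± 0.12 (adjusted p = 0.367). In CPM of the fit of all 96 libraries, its means were 8884 ± 976 in Q92 at 10 months and 13305 ± 1037 in Q92 at 6 months, beside 10718 ± 1069 in Q20 at 10 months and 12408 ± 1241 in Q20 at 6 months (SD, n = 8 each).

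The spread of counts followed the same direction in every genotype. The effective number of hairpins averaged 48.9 ± 1.31 at 10 months and 46.6 ± 0.94 at 6 months in Q92, 47.6 ± 0.98 and 42.8 ± 2.46 in Q140, 49.3 ± 0.79 and 47.0 ± 2.75 in Q50, 48.9 ± 1.501 and 46.0 ± 1.29 in Q20, and 49.8 ± 1.11 and 46.7 ± 1.88 in wild type (SD, n = 8 each, 16 in wild type). Only the Q92 difference was tested, and whether the genotypes differ in it was not.

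**Figure D4:**
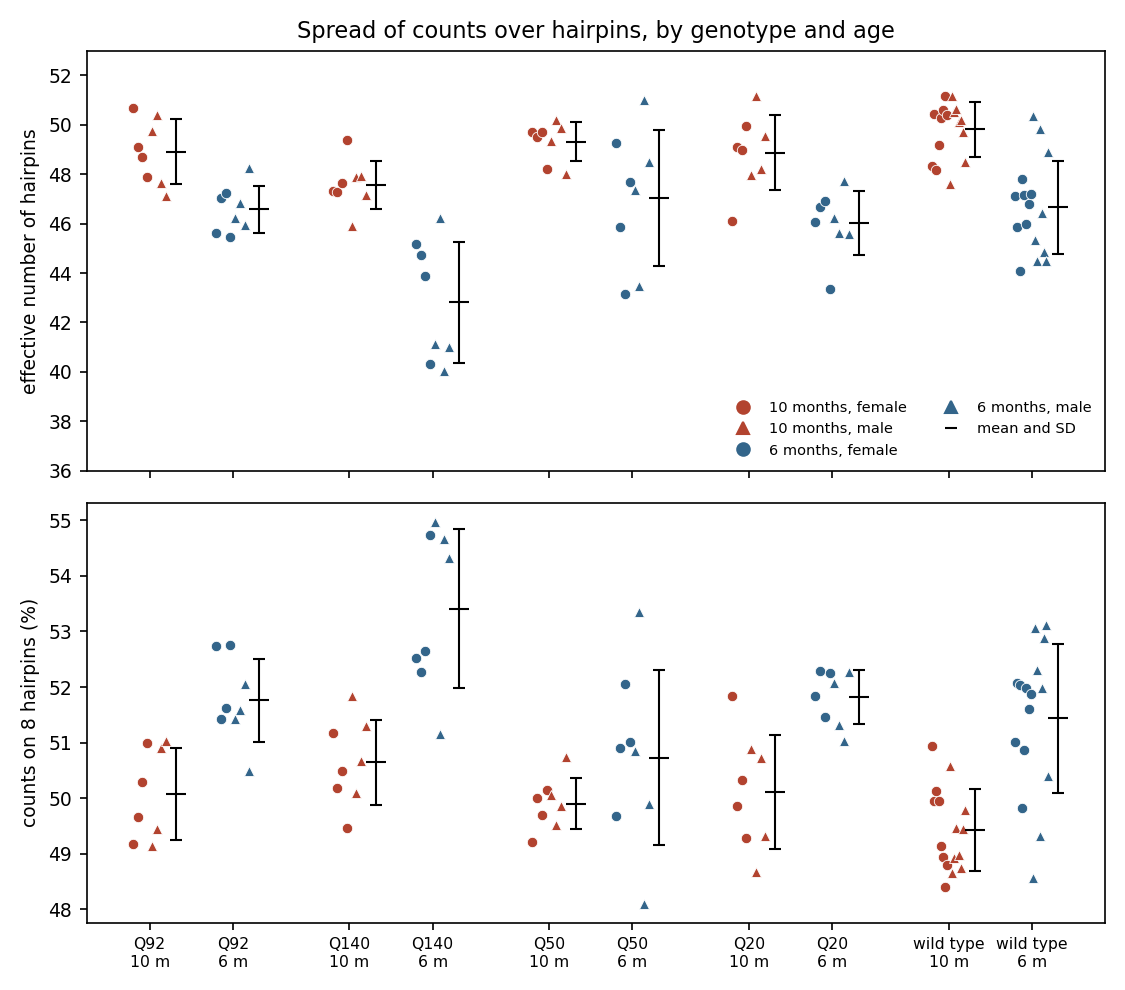
The effective number of hairpins (top) and the share of counts on the 8 most abundant hairpins (bottom, %) in each of the 96 libraries, by genotype and age with 10 months left of 6 months; circles are females, triangles males, and bars the mean ± SD; the vertical axes do not start at 0. In Q92 the effective number averages 48.9 at 10 months and 46.6 at 6 months.

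Against Q50, 2 hairpins of 474 (0.422%) had a different age difference in Q92. MI0000256 had an age difference lower in Q92 than in Q50 by 4.11 log2 (-4.11 ± 1.04 SE, edgeR adjusted p = 0.0422). One Q50 library, 10-month male 3, had 221 CPM of MI0000256 while the next Q50 library of that age had 1.66 CPM, and without it the difference was 0.32 (adjusted p = 0.884). MI0000694 had an age difference higher in Q92 by 3.13 ± 0.80 log2 (SE, edgeR adjusted p = 0.0422). In Q92, 10-month female 1 had 31.6 CPM of MI0000694 and the next 10-month library 8.56 CPM, and without female 1 the difference was 2.24 (adjusted p = 0.367). The call for MI0000694 was lost when any of 11 of the 16 Q92 libraries was left out, female 1 among them. With the L number as a factor, 0 hairpins passed against Q50.

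The library of 10-month female 1 held 9 hairpins at over 2 times the level of any other Q92 library and above 5 CPM, where every other library held 0 or 1 such hairpins. None of the 9 was called between the ages in the fit of the 16 Q92 libraries, while MI0000694 was called in Q92 in the fit of all 96 (2.06 ± 0.54 log2, SE, edgeR adjusted p = 0.00479). MI0001642, chosen after its values were seen, had the highest ratio. Its level was 693 CPM in female 1, 102 CPM in the next 10-month library and a median of 18.5 CPM over the other 7 libraries at 10 months, against a median of 20.8 CPM and a highest value of 35.6 CPM at 6 months. Its log2 difference was 1.71 ± 0.89 (SE, edgeR adjusted p = 0.193), and 0.71 without that library (adjusted p = 0.324). Leaving out female 1 left 74 hairpins called between the ages (33 higher and 41 lower), 68 of them among the 86.

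**Figure D5:**
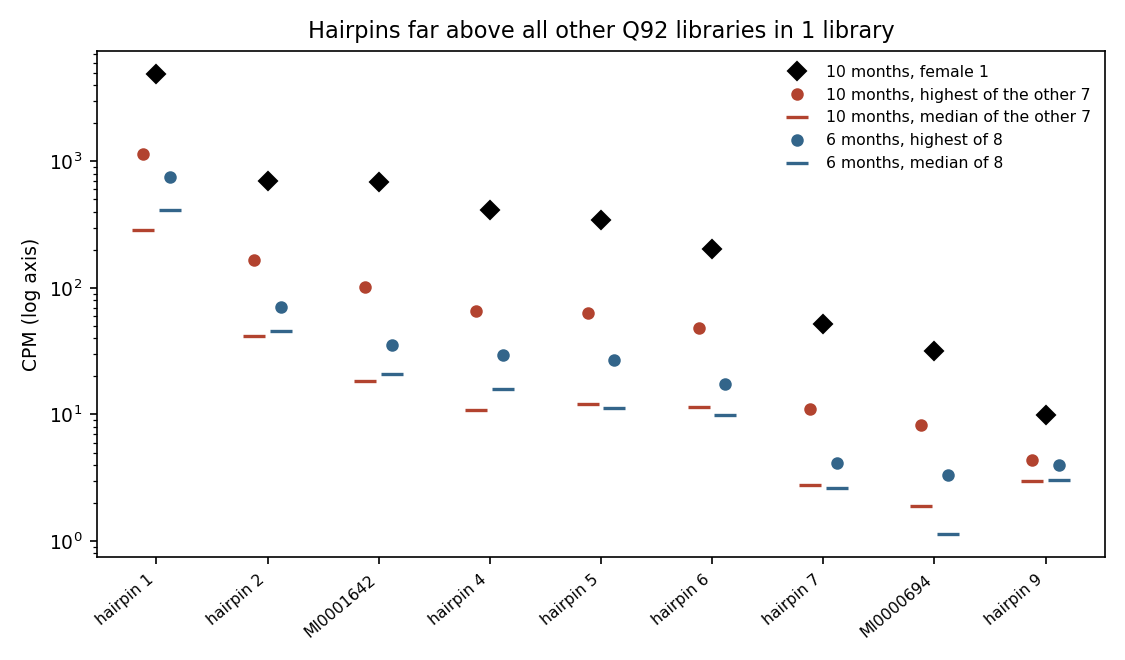
The 9 hairpins that stand far above every other Q92 library in 10-month female 1 (black diamonds), in CPM on a log axis, beside the highest and the median of the other 7 libraries at 10 months (red) and of the 8 libraries at 6 months (blue); 7 hairpins are numbered by their level in female 1. MI0001642 is at 693 CPM in that library, while its median is 18.5 CPM in the others at 10 months and 20.8 CPM at 6 months.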

How the data were processed

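MicroRNA hairpins were measured by small RNA sequencing of striatum. The authors isolated RNA with the miRNeasy kit, made libraries by Illumina protocols, sequenced 36-base single-end reads, aligned clipped reads to mm10 with STAR and counted with HTSeq, and the submitters' processing notes name CASAVA 1.8.2. The deposited table of estimated counts, one column per library, was rounded to whole numbers; 19.8% of its values above 0 in the 16 Q92 libraries were not whole (tolerance 0.001), so reads may have been divided among hairpins in a way the sources used here do not state. The deposited FPKM table, which the authors scaled by total counts and hairpin length, was used only to read hairpin lengths (49 to 147 nt, median 83.5 nt for the hairpins called and 83 nt for those tested). Of the columns that hold samples, 0 were left out.

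Counts were tested in R 4.3.3 with edgeR 4.0.16 (robust quasi-likelihood test, TMM scaling, filterByExpr with a minimum count of 10, sex as covariate), with p-values adjusted over all hairpins tested and called below 0.05; DESeq2 1.42.0 was an alternative. The study's tests had batch as a covariate, which the labels do not define. Single values per library were compared by exact permutation. The procedure was tested on simulated counts. P-values set each difference against the spread between mice, and they do not separate age from the blocks of serial numbers. The members and lists were chosen with earlier results of these data known. The rule for named hairpins took, for rises and for falls, the 12 of lowest adjusted p, the 6 most abundant and up to 3 per contrast; since accessions could not be paired with names, it was cut to 2 in each direction, and the fixed microRNA lists could not be used. Alternatives were other scalings, filters, DESeq2, all 96 libraries, the L number, each sex alone, a replicate block, each library left out and thinning to 3948557 counts.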

Additional observations from a re-analysis of the deposited data

Results flagged for a closer look

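A test of the difference itself set MI0000256 apart between Q92 and Q50, with an age difference of -4.11 log2 in Q92 relative to Q50, and MI0000694 likewise with 3.13 log2. Without Q50 10-month male 3 the first was 0.32 log2, and without Q92 10-month female 1 the second was 2.24 log2, no longer past the test.

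Groups of 8 values, 20 in all, were examined for a sample far from the others. They drew on the same libraries more than once and are not independent. Of these groups 3 had such a sample, and chance flags about 1 in 20. That rate does not apply to the flags of MI0001642 and MI0000694. MI0001642 was chosen for its level in 10-month female 1, and the call of MI0000694 against Q50 was lost without that library. MI0000257 was at 11134 CPM in 10-month male 4, above the other 10-month libraries and below every 6-month library. In the scaling of the 16 Q92 libraries, MI0000694 was at 31.8 CPM and MI0001642 at 693 CPM in 10-month female 1, which is the library that stood apart over all hairpins.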

How the results depend on the processing

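All 86 hairpins kept their direction under every alternative in which they were tested (73 of them with a filter at a mean of 10 CPM, 84 after thinning). The alternatives reuse the libraries that chose the 86, so a kept direction was likely beforehand and is no separate support. Between females alone and males alone, 72.0% of all tested hairpins had the same sign. The count of 86 was 55 (24 higher and 31 lower) with no filter on low counts, 41 with the L number as a factor, 38 with the L4 libraries, 27 with females and 11 with males, with fewer libraries in the L4, female and male fits. It was 94 with total counts, 86 with RLE factors, 100 with DESeq2, 77 with the 10 CPM filter, 81 with all 96 libraries and 72 after thinning. Leaving out one library at a time gave 64 to 85 calls. With a replicate block the count was 71 (23 higher and 48 lower; 67 of the 86). Libraries of the same number did not deviate together (8 pairs, mean correlation -0.09, range -0.43 to 0.23), so the numbers were not read as pairs.

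Against Q50 the count of 2 was 0 with the L number or the replicate block, and 0 to 3 with one library left out. It was 2 with DESeq2, and 1 with DESeq2 run without 10-month female 1. Without Q50 10-month male 3, the difference of MI0000256 was 0.32, the opposite sign. With a library left out it ran between -4.34 and 0.32, and that of MI0000694 between 2.24 and 3.38. Against wild type DESeq2 called 6, and leaving out one library gave 0 to 7. Against Q20 the L number gave 1, a hairpin (MI0025035) with a fitted value of 22.1 ± 5.14 log2 (SE), too large to be read as a fold. Leave-one-out gave 0 to 1. By sex the count stayed 0 in all alternatives run. The difference in total counts ran between -1019204 and -401004, with no p below 0.05. For the effective number the difference was 2.08 to 2.59 with a library left out, 0.69 for L4 (exact permutation p = 0.314) and 1.93 for males (exact permutation p = 0.114). For the share on 8 hairpins it was -1.87 to -1.54 points, -0.69 for L4 and -1.26 for males (exact permutation p = 0.114). The causes were not tested.

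Of the 86 calls, 36 (41.9%) had estimated counts that were not whole in some library, against 137 (32.7%) of the 419. Among the 282 hairpins with whole values only, 50 (17.7%) were called, 18 higher and 32 lower. Of the tested hairpins, 3 repeated the values of another one in each Q92 library. Among the 86 calls, 1 repeated another call in this way, so the counts of calls hold that measurement more than once.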
